A study of Saccharomyces cerevisiae with 8 samples.

Results

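The genes described here encode the DNA replication machinery that copies the chromosomes in premeiotic S phase. They were listed by name as the genes for origin recognition, helicase loading and activation, DNA synthesis and fork protection in budding yeast. All 49 listed genes had a probe set on the array that names 1 gene, out of 5656 genes with such a probe set. All 49 were read from gene-specific probe sets. POL2 alone had more than 1 probe set of any type, with 9, most of them not of the gene-specific type. With a mean signal of at least 21 required, 47 of the 49 were tested among 5475 genes in all, and SLD2 and POL32 were below that level.

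Replication starts at origins, where the origin recognition complex and Cdc6 load the Mcm helicase as an inactive ring around DNA. The kinase Cdc7 with its partner Dbf4, and a cyclin-dependent kinase, then convert the ring into a working helicase with Cdc45 and the GINS complex, and polymerases alpha, delta and epsilon copy the strands. Before meiosis the cell runs this program once, and recombination and the meiotic divisions follow. In mitotically growing yeast many of these genes are transcribed in bursts as cells pass from G1 into S phase.

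Polyadenylated RNA was measured on 1-colour Affymetrix YG-S98 arrays in diploid cells of the SK1 background, a laboratory strain that sporulates fast and well. The strains were wild type (MJL1720), the strain labelled mre11delta (YMD1599), rad50delta (RKD101) and spo11Y135F (RKD1312), and the labels give no further alleles. Each was sampled at 0 h, from acetate-based presporulation medium, and after 4 h in potassium acetate sporulation medium, which the labels place in prophase. Mre11 and Rad50 belong to the complex that forms and trims meiotic DNA breaks, and spo11Y135F replaces the tyrosine with which Spo11 cuts DNA. Each strain had 1 array per time and 8 arrays were used in all, so the 4 strains served as the replicates of the comparison over time, and differences between strains had no test. RNA was extracted with Trizol from wild type at 0 h and for both arrays labelled mre11delta, and with glass beads and RNeasy columns for the other 5 arrays.

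Arrays differed in brightness, with median signals from 97.3 to 196.4, and the median change of all tested genes from 0 h to 4 h was 0.19 on the log2(signal + 7) scale on which every change below is given. Changes relative to that median are named as relative. RAD50 read 0.6 and 3.4 on the rad50delta arrays and between 88.4 and 758 elsewhere. MRE11 read 84.0 and 108 on the arrays labelled mre11delta and from 45.0 to 192 on the other 6, so this probe set did not set the pair apart. A point mutation such as spo11Y135F leaves nothing for the SPO11 probe set to check. At 4 h SPO11 read 94.2 in spo11Y135F and 349, 322 and 469 in wild type, labelled mre11delta and rad50delta. These were bulk cultures, in which fewer cells of a stage and less RNA per cell cannot be told apart.

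Over time, 9 of the 47 tested replication genes were higher at 4 h and 0 were lower in the limma fit with strain as a block, against 10.6% of all tested genes higher and 4.02% lower. The 9 that rose were ORC1 and ORC3 of the origin recognition complex, MCM5 of the helicase ring, CDC7 and DBF4 of the activating kinase, POL1 and POL12 of polymerase alpha, and POL2 and DPB3 of polymerase epsilon. Their rises ran from 3.31-fold to 6.42-fold. At an unadjusted p under 0.05 there were 17 replication genes in either direction and 1482 of all genes. The median change of the 47 genes was 0.51, which is 0.33 relative to all genes. Relative medians in the separate strains were 0.53 in wild type, 0.51 on the arrays labelled mre11delta, 0.27 in rad50delta and 0.04 in spo11Y135F. With arrays centred on their medians 8 rose and 4 fell (ORC2, ORC4, DPB2 and RAD27), and with quantile normalization 9 rose and 2 fell (ORC4 and RAD27). In both settings the share of all tested genes was above that of the 47 for falls and below it for rises. No excess of falls among the replication genes is therefore read from them. Because the extraction method changed between the wild-type arrays only, the comparison was repeated without wild type, which left 4 rises, those of ORC1, ORC3, MCM5 and DBF4. Omitting rad50delta instead, or the pair labelled mre11delta, left the same number, ORC1, ORC3, CDC7 and DBF4. In each of these fits the share of all tested genes that rose was also below 10.6%. When the pair labelled mre11delta was omitted, the share of replication genes that rose was about that of all tested genes.

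**Figure D1:**
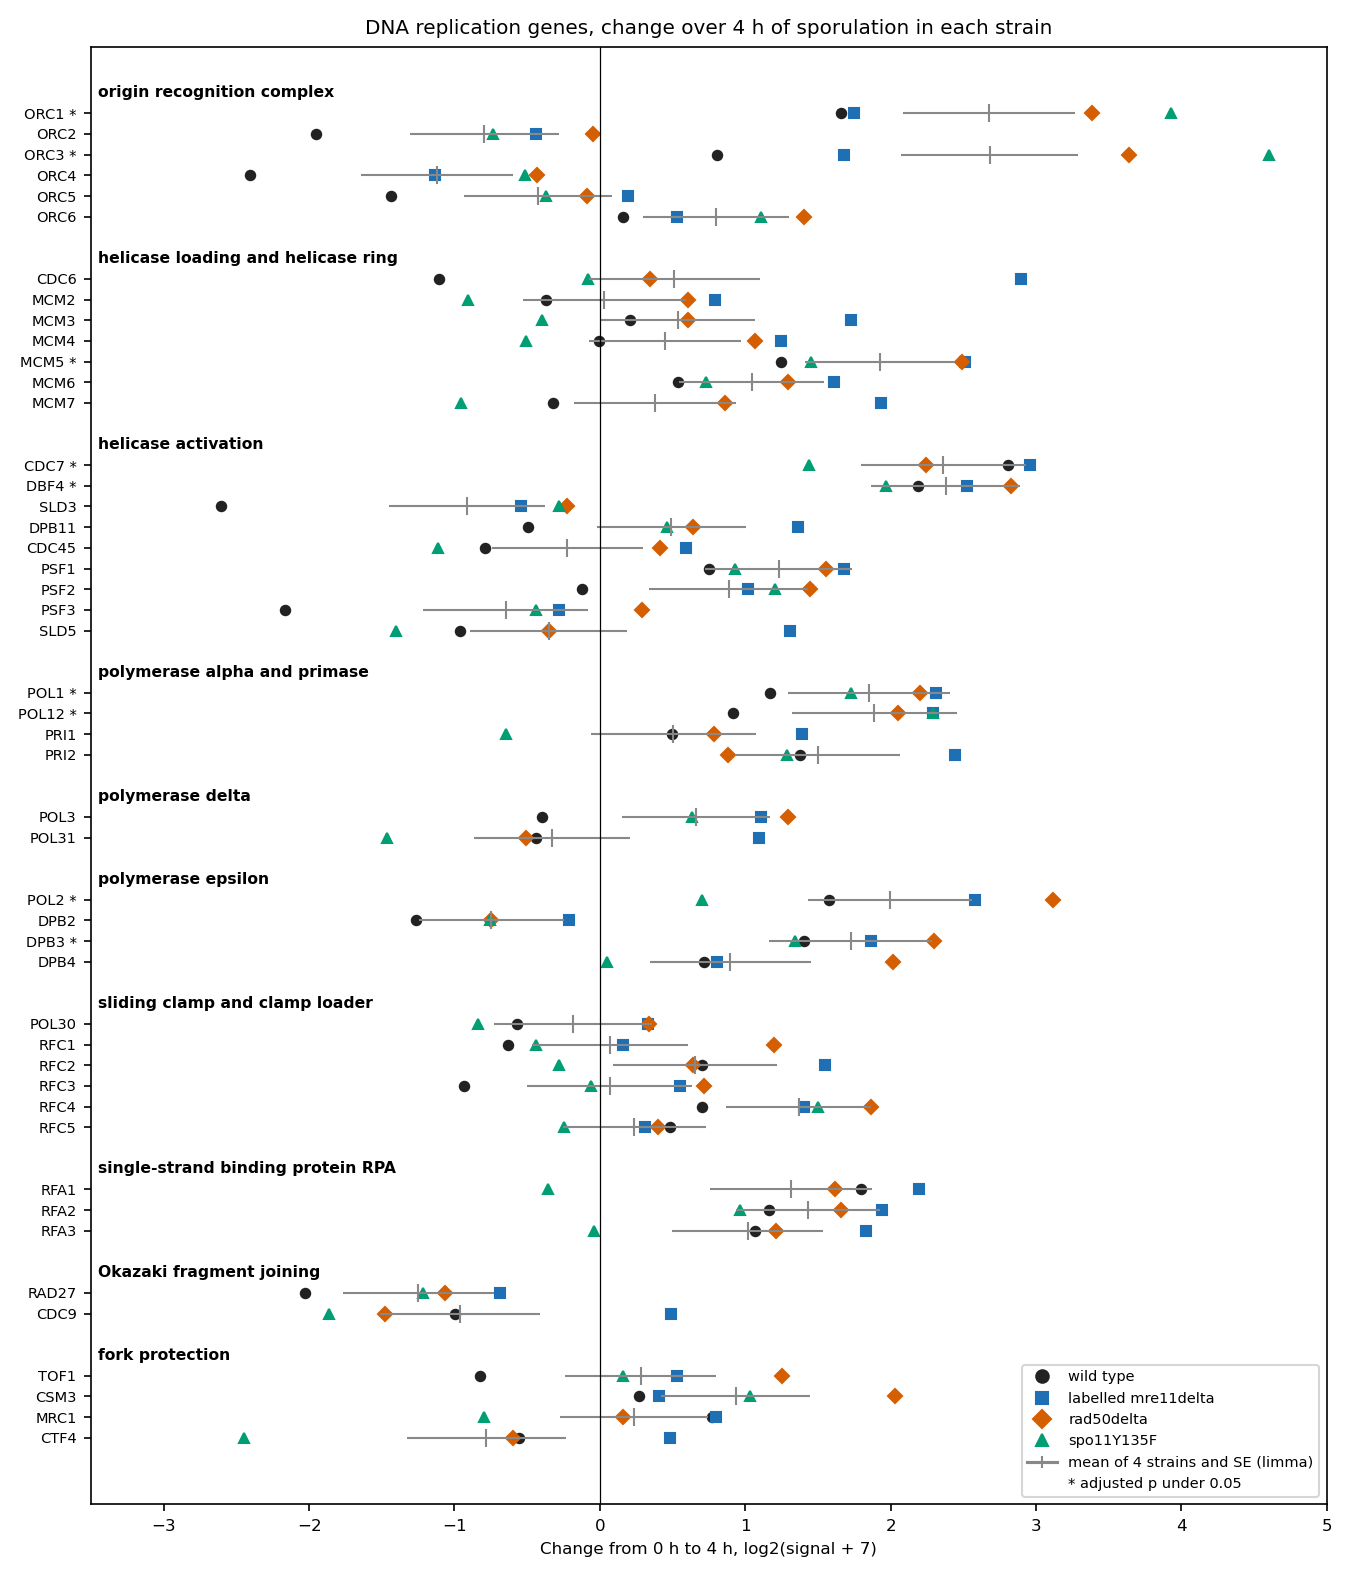
Change from 0 h to 4 h, in log2(signal + 7), of the 47 tested replication genes grouped by role, with 1 point per strain, a tick for the mean of the 4 strains and a bar for limma's SE. Asterisks mark the 9 genes that passed the test, and the points of ORC1, CDC7 and DBF4 all lie above 1 while those of RAD27 and ORC4 lie below 0 in every strain.

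The plot of changes by strain shows the role groups side by side. Rises sat in 5 of the 10 role groups. In the origin recognition complex, helicase activation and polymerase epsilon they sat beside genes with changes below 0. By contrast, all 4 polymerase alpha and primase genes and all 3 RPA genes had changes above 0. In 14 of the 47 genes all 4 h signals lay above all 0 h signals, against 14.4% of all tested genes, and in ORC4 and DPB2 all 4 h signals lay below all 0 h signals, against 5.41%. The 14 were the rising genes other than POL2, together with ORC6, MCM6, PSF1, PRI2, RFC4 and RFA2.

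In the origin recognition complex, the 6-part assembly that marks origins, 2 genes rose and 4 did not pass the test. Signals are given below in the order wild type, labelled mre11delta, rad50delta and spo11Y135F. ORC1 (YML065W), the ATP-binding subunit, read 159, 141, 123 and 147 at 0 h and 517, 490.0, 1348 and 2335 at 4 h. Its 4 h arrays all exceeded its 0 h arrays, and rad50delta and spo11Y135F reached the highest levels. The change was 2.68 ± 0.59 (SE, n = 4 strains), a 6.41-fold rise with an adjusted p of 0.00322. ORC3 (YLL004W), another core subunit, read 70.4, 78.7, 47.8 and 60.1 at 0 h and 128, 268, 675 and 1625 at 4 h. Here too the groups were apart, but the wild-type change of 0.81 was a fraction of the spo11Y135F change of 4.60. ORC3 rose by 2.68 ± 0.61 (6.42-fold, adjusted p = 0.00405), a call that was lost under median centring and under quantile normalization (adjusted p of 0.0559 and 0.0607).

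The remaining origin subunits had changes of -0.79 for ORC2, -1.12 for ORC4, -0.43 for ORC5 and 0.80 for ORC6. ORC4 (YPR162C) read 234, 189, 100.2 and 116 at 0 h and 38.5, 82.3, 72.6 and 79.2 at 4 h, lower at 4 h in every strain, with an adjusted p of 0.17. That difference passed the test under both median centring and quantile normalization (adjusted p of 0.036 and 0.0468). The 6 genes of 1 complex therefore spanned from -1.12 to 2.68 with a median of 0.19, the same as that of all genes.

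For helicase loading, 1 of 7 genes rose. MCM5 (YLR274W), a subunit of the helicase ring, read 50.7, 46.2, 43.3 and 87.4 at 0 h and 130.1, 297, 276 and 251 at 4 h. All 4 strains were higher at 4 h, and the change of 1.93 ± 0.51 was 3.80-fold with an adjusted p of 0.0134. Leaving out the arrays labelled mre11delta or those of rad50delta ended the call (adjusted p of 0.0571 and 0.12). The other ring subunits had changes of 0.03 for MCM2, 0.53 for MCM3, 0.45 for MCM4, 1.04 for MCM6 and 0.38 for MCM7, with adjusted p from 0.180 upward. Only MCM5 and MCM6 of the ring had 4 h signals that were all above the 0 h signals.

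MCM7 (YBR202W) differed by strain and read 129.7, 105, 78.0 and 203 at 0 h and 102, 423, 148 and 101 at 4 h. It was at least 2-fold higher on the array labelled mre11delta than in any other strain at 4 h. CDC6 (YJL194W), which loads the ring onto origins, was near the floor of the measurement and read 36.1, 3.1, 32.3 and 49.4 at 0 h and 13.0, 68.3, 43.0 and 46.2 at 4 h. Its change of 0.51 ± 0.59 (adjusted p = 0.61) covered strain changes of -1.11, 2.90, 0.35 and -0.08.

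The helicase-activating kinase rose in both subunits. CDC7 (YDL017W), its catalytic subunit, read 136, 125, 282 and 353 at 0 h and 994, 1023, 1363 and 971 at 4 h, a change of 2.36 ± 0.57 (5.14-fold, adjusted p = 0.00644). DBF4 (YDR052C), the regulatory subunit whose abundance limits the kinase in the mitotic cycle, read 59.5, 61.9, 55.8 and 87.3 at 0 h and 296, 389.7, 439.8 and 362 at 4 h, a change of 2.38 ± 0.52 (5.20-fold, adjusted p = 0.00284). At 4 h CDC7 varied little between strains, and the 0 h signals of rad50delta and spo11Y135F were above those of the other strains. Leaving out wild type or fitting extraction as a covariate ended the CDC7 call (adjusted p of 0.0643 and 0.0644). Together with ORC1, DBF4 passed the test under all 16 alternatives, with adjusted p of at most 0.0335 for DBF4 and 0.0345 for ORC1.

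**Figure D2:**
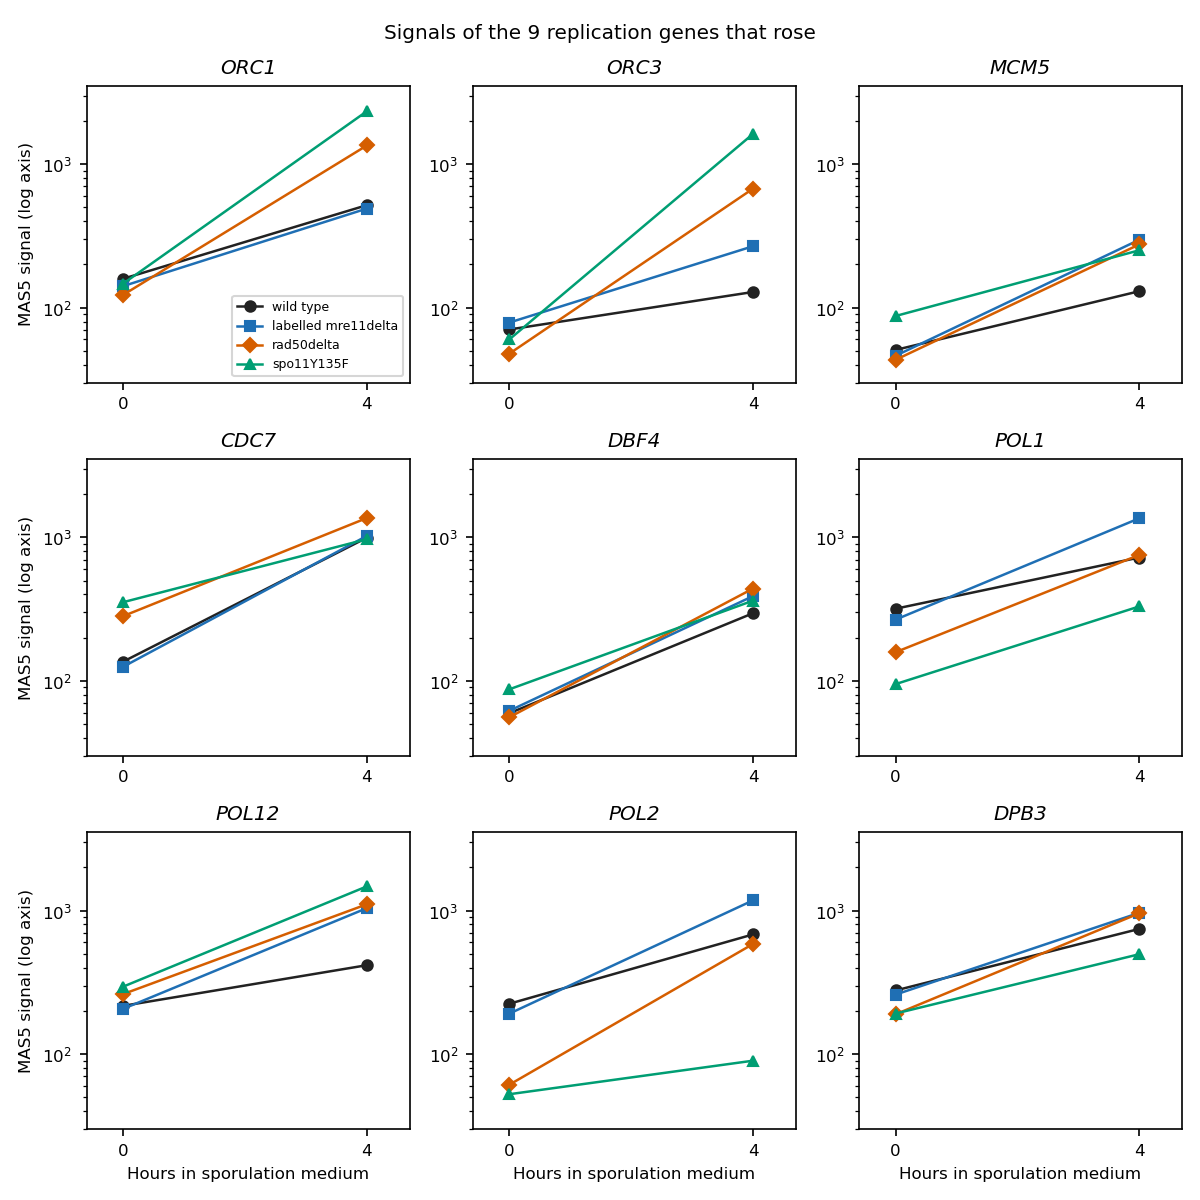
Signal, on a log axis, of the 9 replication genes that rose, at 0 h and at 4 h, with 1 line per strain. ORC1 and ORC3 fan out at 4 h with rad50delta and spo11Y135F on top, the CDC7 lines come together, and spo11Y135F stays lowest for POL1 and POL2.

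The plot of signals of the risers shows these shapes. The other activation factors did not pass the test. SLD3 (YGL113W), which recruits Cdc45 to origins, read 82.7, 89.2, 55.1 and 55.1 at 0 h and 7.7, 59.1, 46.1 and 44.1 at 4 h, a change of -0.91 ± 0.53 (adjusted p = 0.284). The low 4 h value of wild type stood apart from the other strains. CDC45 (YLR103C), the helicase component, read 163, 164, 60.0 and 60.4 at 0 h and 91.6, 251, 82.3 and 24.1 at 4 h, and its 4 h signals ran from 251 on the array labelled mre11delta down to 24.1 in spo11Y135F. DPB11, the scaffold that bridges Sld2 and Sld3, had a change of 0.49.

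The 4 GINS genes also split. PSF1 had a change of 1.23 ± 0.51 (adjusted p = 0.113) and PSF2 of 0.89, while PSF3 and SLD5 had -0.65 and -0.35. PSF3 (YOL146W) read 417, 364, 159 and 389 at 0 h and 87.6, 299, 196 and 285 at 4 h. SLD5 (YDR489W) read 77.3, 76.2, 68.5 and 87.9 at 0 h and 36.2, 199, 52.2 and 28.9 at 4 h. PSF3 was lowest in rad50delta at 0 h and in wild type at 4 h, and SLD5 was highest on the array labelled mre11delta at 4 h. SLD2, which joins Dpb11 once phosphorylated, was not tested and read 1.7, 15.8, 16.9 and 44.6 at 0 h and 18.3, 45.1, 4.5 and 12.0 at 4 h.

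Polymerase alpha and primase start each new strand, and both polymerase subunits rose. POL1 (YNL102W), the catalytic subunit, read 318, 267, 158 and 94.9 at 0 h and 723, 1357, 754 and 330.0 at 4 h, a change of 1.85 ± 0.56 (3.61-fold, adjusted p = 0.0273). POL12 (YBL035C), its B subunit, read 217, 207, 262 and 295 at 0 h and 416, 1039, 1106 and 1474 at 4 h, a change of 1.89 ± 0.57 (3.70-fold, adjusted p = 0.0267). Both were higher at 4 h in every strain, with POL1 lowest and POL12 highest in spo11Y135F. The POL12 call was lost when any 1 strain was left out (adjusted p from 0.0503 to 0.156). The POL1 call was lost with the covariate and when wild type, rad50delta or the strain labelled mre11delta was left out (adjusted p from 0.0575 to 0.189).

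Neither primase gene passed. PRI2, the large primase subunit, had a change of 1.50 ± 0.57 (adjusted p = 0.081). PRI1 (YIR008C), the catalytic primase subunit, read 265, 278, 229 and 290.0 at 0 h and 378, 739, 399 and 183 at 4 h, a change of 0.51 ± 0.57. In spo11Y135F PRI1 was lower at 4 h than at 0 h, unlike the other 3 strains. The 4 genes had a median change of 1.68, or 1.49 relative to all genes.

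Polymerase epsilon, which copies the leading strand, had 2 rising subunits of 4. POL2 (YNL262W), the catalytic subunit, read 224, 191, 61.2 and 52.5 at 0 h and 682, 1178, 585 and 89.9 at 4 h. Each strain was higher at 4 h, but the 4 h level of spo11Y135F lay below the 0 h levels of wild type and the array labelled mre11delta. The change was 1.99 ± 0.57 (3.98-fold, adjusted p = 0.0193). DPB3 (YBR278W), a small histone-fold subunit, read 277, 259.7, 189 and 192 at 0 h and 745, 964, 957 and 496 at 4 h, a change of 1.73 ± 0.56 (3.31-fold, adjusted p = 0.0412). The settings that ended the POL1 call also ended both of these, with adjusted p from 0.0616 to 0.206 for POL2 and from 0.0888 to 0.277 for DPB3. With no strain block the POL2 call was lost as well (adjusted p = 0.0911). DPB4, the partner of Dpb3, had a change of 0.90, and DPB2, the essential second subunit, had -0.75 ± 0.50 (adjusted p = 0.359) and was lower at 4 h in all 4 strains.

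Because POL2 had 9 probe sets, its change could be read more than once on the same arrays. In 8 of the 9, all 4 strains were higher at 4 h, but 5 of those 8 read under 21 on at least 1 array, down to 0.9, where a direction is uncertain. Over the 3 that read at least 21 on all 8 arrays, changes ran from 1.16 to 1.68 in wild type, 1.92 to 2.86 on the arrays labelled mre11delta, 2.32 to 3.12 in rad50delta and 0.50 to 0.70 in spo11Y135F. The remaining probe set read between 0.7 and 22.7 on every array and was higher in 1 strain. These probe sets share each array's RNA and are not replicates.

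**Figure D3:**
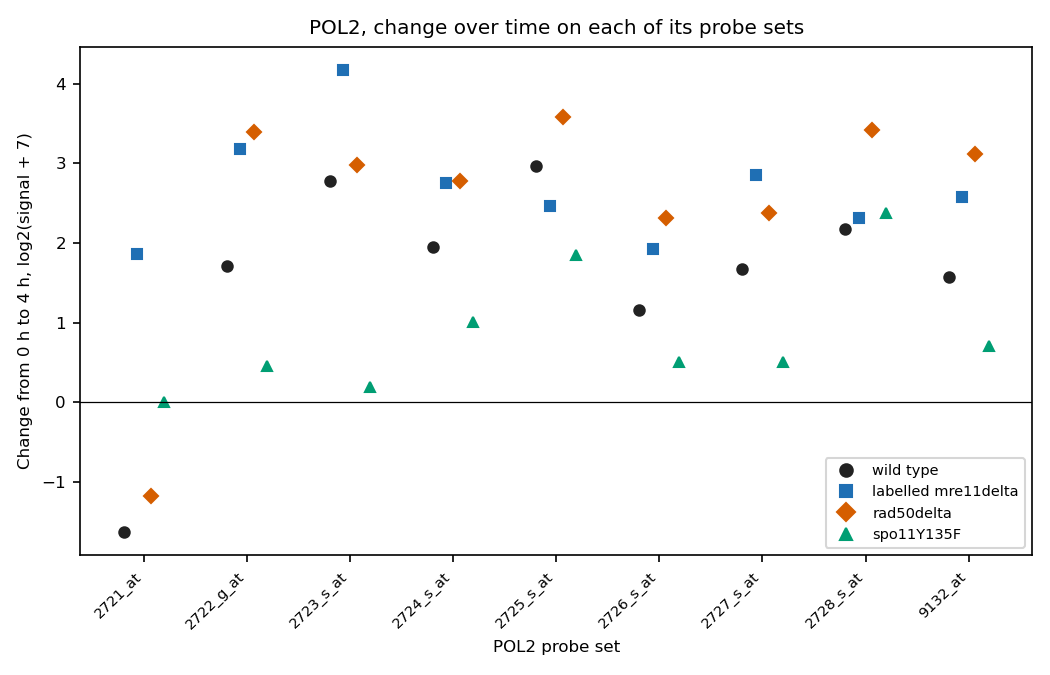
Change from 0 h to 4 h, in log2(signal + 7), for each of the 9 POL2 probe sets, with 1 point per strain. In 8 probe sets, 5 of them with some signals under 21, every point lies above 0, and the spo11Y135F points are the lowest in most of them.

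Polymerase delta, which extends Okazaki fragments on the lagging strand, had no called gene. Its catalytic subunit POL3 (YDL102W) read 77.7, 57.8, 31.4 and 47.9 at 0 h and 57.2, 133, 87.1 and 78.1 at 4 h, a change of 0.66 ± 0.51 (adjusted p = 0.434). POL31 (YJR006W), the second subunit, read 112, 90.7, 124 and 165 at 0 h and 80.2, 202, 84.7 and 55.4 at 4 h, higher at 4 h on the arrays labelled mre11delta and lower in the other strains. POL32, the third and non-essential subunit, was not tested and read 26.9, 25.2, 5.2 and 5.1 at 0 h and 17.3, 33.5, 11.7 and 20.3 at 4 h.

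The sliding clamp and its loader also had no called gene, and 5 of the 6 had changes from -0.19 to 0.65. RFC4, a small subunit of the loader, had the largest, 1.37 ± 0.50 (adjusted p = 0.0702), with readings of 27.6, 31.1, 14.7 and 23.0 at 0 h and 49.3, 93.7, 72.0 and 78.0 at 4 h. Its 4 h signals were all above its 0 h signals, and it passed with the RNeasy pairs alone (adjusted p = 0.0134). POL30 (YBR088C), which encodes the clamp PCNA, read 312, 331, 205 and 173 at 0 h and 208, 418, 261 and 93.8 at 4 h, a change of -0.19 ± 0.54. At 4 h POL30 was more than 2-fold lower in spo11Y135F than in any other strain. The other loader genes RFC1, RFC2, RFC3 and RFC5 had changes of 0.07, 0.65, 0.07 and 0.24.

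The 3 genes of the single-strand binding protein RPA, which coats DNA at forks and also at recombining breaks, had a median change of 1.31 and none passed. RFA1 (YAR007C) read 570.1, 739, 538 and 899.6 at 0 h and 1999, 3404, 1666 and 701 at 4 h. RFA2 (YNL312W) read 1079, 887, 767 and 698 at 0 h and 2426, 3424, 2442 and 1366 at 4 h. RFA3 (YJL173C) read 889.8, 740.4, 1045 and 905 at 0 h and 1869, 2655, 2434 and 879 at 4 h. In wild type, rad50delta and the arrays labelled mre11delta all 3 were at least 2-fold higher at 4 h, whereas spo11Y135F was lower at 4 h for RFA1 and RFA3. The changes were 1.31 ± 0.56, 1.43 ± 0.50 and 1.02 ± 0.52, with adjusted p of 0.125, 0.0567 and 0.216. Without spo11Y135F, RFA1 and RFA2 passed with adjusted p of 0.0221 and 0.0448.

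The genes that finish Okazaki fragments lay at the other end. RAD27 (YKL113C), the flap endonuclease, read 329, 329, 159 and 150.5 at 0 h and 75.4, 201, 72.4 and 60.8 at 4 h. It was lower at 4 h in every strain, a change of -1.25 ± 0.52 with an adjusted p of 0.114, and passed with median centring (0.0169) and quantile normalization (0.0208). CDC9 (YDL164C), the DNA ligase that seals the nicks, read 202, 219, 272 and 323 at 0 h and 97.6, 309.7, 93.2 and 83.8 at 4 h. CDC9 was lower at 4 h in all strains but the arrays labelled mre11delta, with a change of -0.96 ± 0.55 (adjusted p = 0.274). The 2 genes had a median change of -1.11, or -1.29 relative to all genes.

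Of the fork protection genes none passed. CSM3, which with Tof1 pauses forks at protein barriers, had the largest change, 0.93 ± 0.51 (adjusted p = 0.251), and read 48.6, 60.9, 16.1 and 37.3 at 0 h and 60.1, 83.0, 87.3 and 83.5 at 4 h. CTF4 (YPR135W), which ties polymerase alpha to the helicase, read 123, 127, 154 and 190.3 at 0 h and 81.1, 179, 99.1 and 29.2 at 4 h, a change of -0.78 ± 0.55. The spo11Y135F array at 4 h held the lowest CTF4 signal of all 8 arrays. TOF1 and the checkpoint mediator MRC1 had changes of 0.28 and 0.23.

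**Figure D4:**
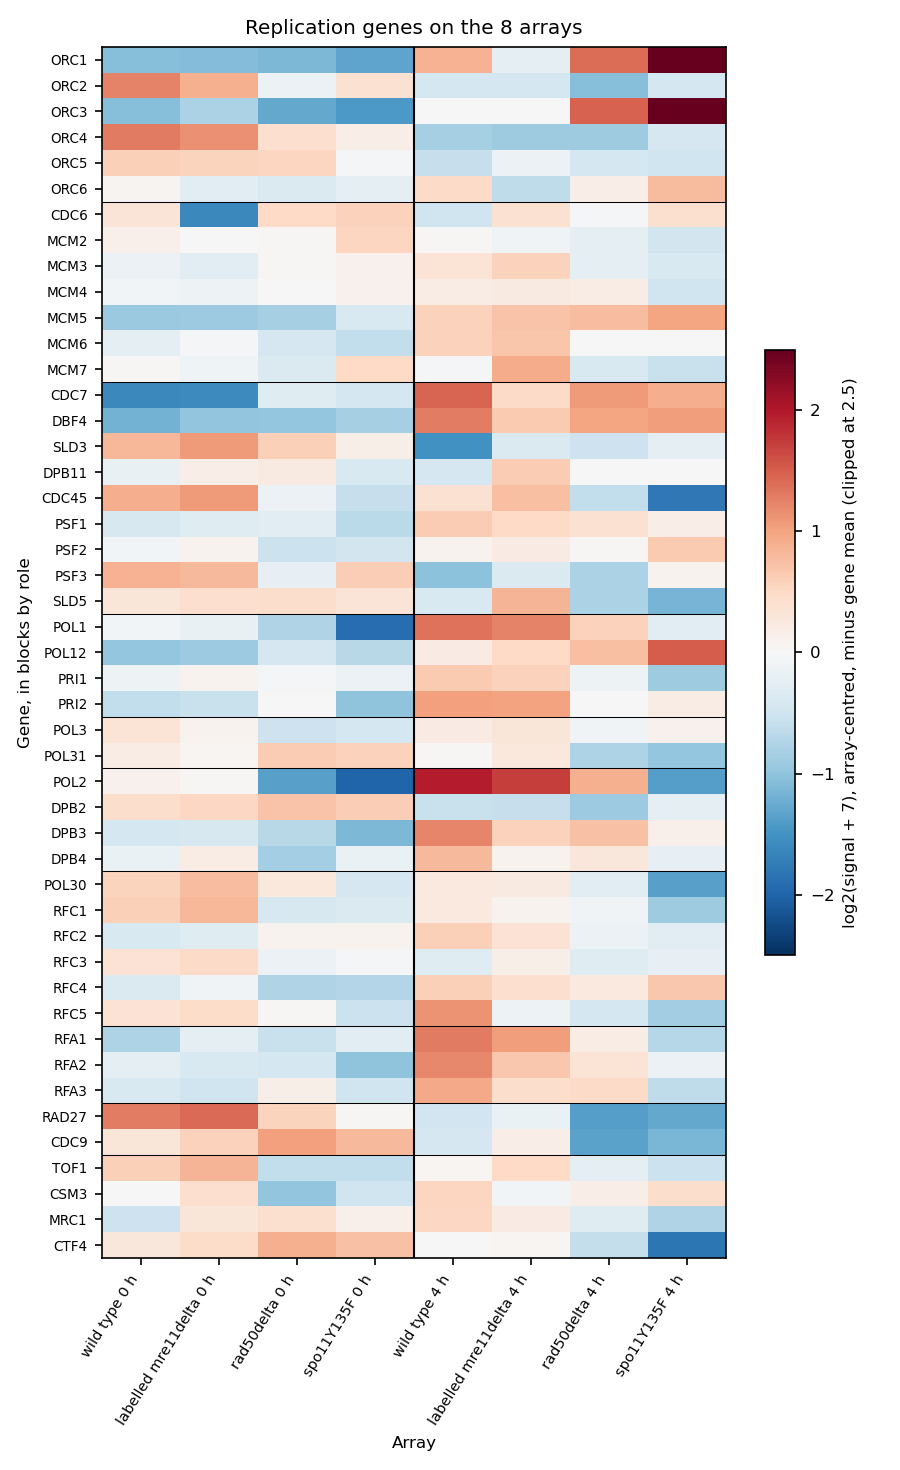
Log2(signal + 7) of each tested replication gene on each of the 8 arrays, after centring each array and then each gene and clipping at 2.5, with genes in rows by role and arrays in columns by time and strain. At 4 h the spo11Y135F array is low for CDC45, POL2, POL30 and CTF4 and high for ORC1, ORC3 and POL12.

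The map of signals by array shows wider differences between strains at 4 h than at 0 h for ORC1, ORC3, SLD5, POL30 and CTF4. Counts within strains use uncentred signals. Within wild type 11 genes were at least 2-fold higher at 4 h and 8 lower, against 15.5% and 31.1% of all tested genes. On the arrays labelled mre11delta 27 were higher and 1 was lower, against 40.6% and 10.0%. In rad50delta 23 were higher and 2 lower, against 34.4% and 5.94%. In spo11Y135F 13 were higher and 6 lower, against 22.7% and 26.2%. ORC1, MCM5, CDC7, DBF4, POL1 and DPB3 were at least 2-fold higher in all 4 strains. The share of all tested genes that met this rule was not counted, so no excess is read from it.

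The array labelled mre11delta gave the highest 4 h signal of 38 of the 47 genes, against 57.0% of all tested genes, and of 15 with median centring, against 27.9%. At 4 h it stood at least 2-fold above the other 3 strains for MCM7, CDC45, SLD5, POL31, RAD27 and CDC9, against 12.2% of all tested genes. That array had the highest median signal of the 8, and with median centring SLD5 alone was left of the 6, against 2.76%. Wild type stood at least 2-fold below the others at 4 h for ORC3, CDC6, SLD3, PSF3 and POL12, against 13.9%, on the array with the lowest median signal, and with median centring 0 of the 5 were left, against 1.55%.

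The spo11Y135F array was the lowest of the 4 at 4 h for 26 genes, against 38.4% of all tested genes, and for 23 with median centring, against 40.5%. It stood at least 2-fold below the other strains for CDC45, POL1, PRI1, POL2, POL30, RFA1, RFA3 and CTF4, against 9.41%. With median centring CDC45, POL2, POL30, RFA3 and CTF4 were left, against 7.54%. Of the 18 genes that stood apart in any strain, POL2 was the only 1 whose gap exceeded 4-fold on the signal + 7 scale. That scale narrows the gaps of dim genes such as CDC6 at 0 h and SLD3 at 4 h. The POL2 gap was under 4-fold on its other probe sets that read at least 21 on every array. There spo11Y135F read 69.9 and 97.9 at 4 h, against 182.3 and 295.6 in wild type, the next lowest. In the other direction ORC3 stood at least 2-fold above the other strains in spo11Y135F, against 4.07%.

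The signals of ORC1, ORC3, ORC6, POL12 and CSM3 in both rad50delta and spo11Y135F at 4 h exceeded those of both other strains, against 24.6% of all tested genes. With median centring the set was ORC1, ORC3, MCM5 and POL12, against 23.6%. The summed signal of the mitotic G2/M marker list, some of whose genes also act in the meiotic divisions, was 8438 in rad50delta and 12999.9 in spo11Y135F at 4 h and 875 and 793 in wild type and the array labelled mre11delta. 3 genes of the list carried these sums. CDC5, the polo kinase that drives exit from meiotic prophase, read 619, 268, 4311 and 5054 at 4 h, CDC20, an activator of the anaphase-promoting complex, read 112, 174, 2155 and 4563, and the cyclin gene CLB1 read 40.0, 55.7, 1607 and 2865. The other 8 genes read at most 173 on any 4 h array. Whether differences in meiotic stage had a part in the strain differences of the replication genes was not tested. At 0 h, CDC6 stood at least 2-fold below the other strains on the array labelled mre11delta and PSF3 in rad50delta, against 1.33% and 2.25% of all tested genes, and with median centring CDC6 was left and PSF3 was not.

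At 0 h the RNeasy arrays, of rad50delta and spo11Y135F, could be set against the Trizol arrays, of wild type and the strain labelled mre11delta. In this comparison extraction and strain cannot be told apart. CDC7 was higher on the RNeasy arrays and 7 genes were lower in the limma fit, against 15.7% of all tested genes higher and 18.0% lower. At an unadjusted p under 0.05 there were 11 replication genes and 2391 of all genes. POL2 had the largest difference, -1.75 ± 0.31 (SE, 2 arrays against 2, adjusted p = 0.0013), with 61.2 and 52.5 on the RNeasy arrays and 224 and 191 on the Trizol arrays. The size of this difference depended on the probe set. Among the other POL2 probe sets, those reading at least 21 on every array differed less, in the same direction. They read 37.3 and 47.3 against 77.7 and 90.8, and 74.5 and 66.8 against 87.6 and 75.7, RNeasy against Trizol. CDC45 differed by -1.35 ± 0.31 (adjusted p = 0.00559) and TOF1 by -1.34 ± 0.32 (0.00754). POL1, RFC1, RAD27 and ORC4 had differences of -1.20 ± 0.35, -1.09 ± 0.33, -1.05 ± 0.32 and -0.92 ± 0.32, with adjusted p of 0.0206, 0.0246, 0.0251 and 0.0444. CDC7 differed by 1.23 ± 0.33 (adjusted p = 0.0129).

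Both RNeasy signals lay above both Trizol signals in 7 genes, against 32.8% of all tested genes, and below both in 22, against 35.9%. POL2 alone, on the probe set used for the test, passed under all 13 alternatives of this comparison. The calls of the other 7 genes were lost without wild type and also without the array labelled mre11delta, each of which leaves 1 Trizol array that is assumed to vary like the others, and that of ORC4 also without rad50delta (0.0543) and with no filter on low values (0.0512). These 0 h levels also enter the changes over time, in which rad50delta and spo11Y135F started lower than the other strains for POL1 and POL2 and higher for CDC7.

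**Figure D5:**
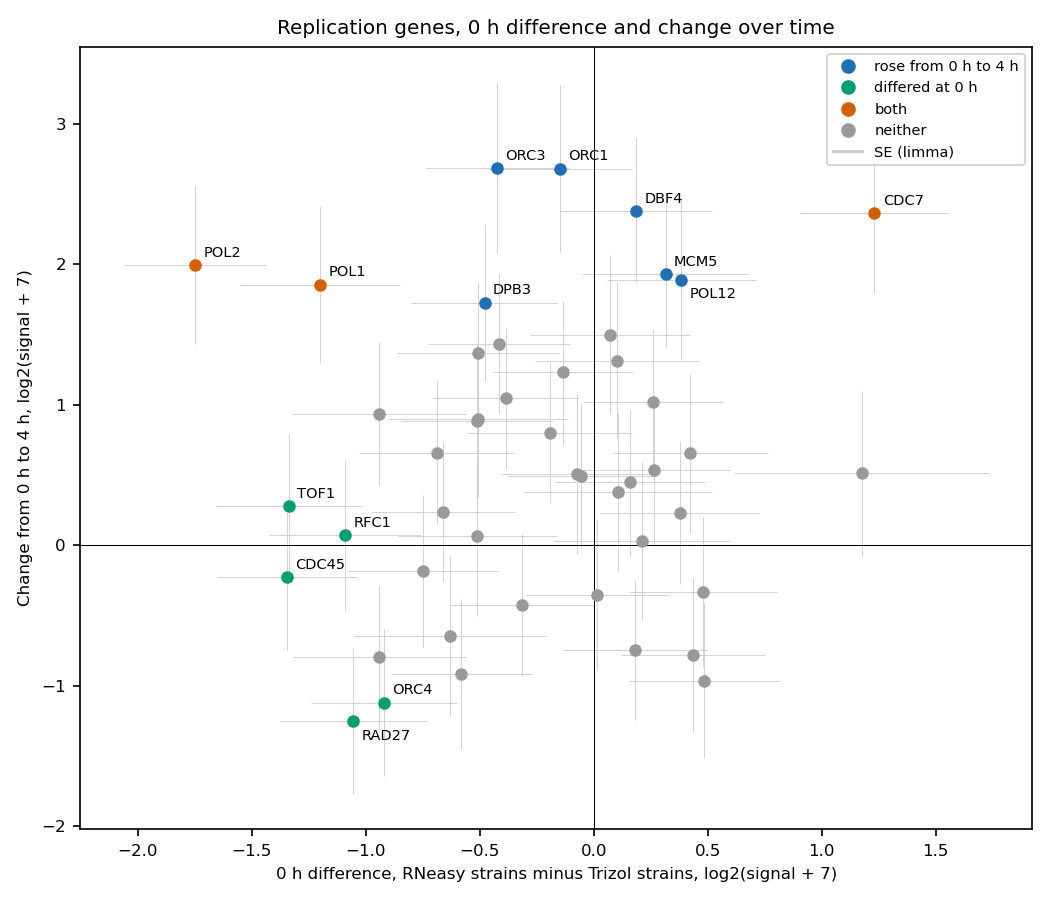
For each tested replication gene, the 0 h difference of the RNeasy arrays (rad50delta, spo11Y135F) minus the Trizol arrays (wild type, labelled mre11delta) on the horizontal axis and the change from 0 h to 4 h on the vertical axis, both in log2(signal + 7) with limma's SE as bars. Colours mark the genes past the test on each axis, with CDC7 on the right and POL2 farthest left.

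In the plot of 0 h differences against changes over time, POL1, POL2 and CDC7 are the genes called on both axes. The axes share the 0 h arrays, so no relation is read between them.

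Other genes of S phase were read from lists. Beside the counts over time of these and of the marker lists, 10.6% of all tested genes rose and 4.02% fell. Of 20 further replication factors 1 rose, MSI1, a subunit of the chromatin assembly factor that follows the fork, with 2.04 ± 0.58 (adjusted p = 0.0204), and its call was lost without rad50delta (0.154), without spo11Y135F (0.0709) and with median centring (0.055) or quantile normalization (0.06). Of 6 genes of the S phase kinase 4 rose. IME2, the meiotic kinase that clears the Cdk inhibitor Sic1, rose by 5.48 ± 0.57 (adjusted p = 6.92e-07), the B-type cyclin gene CLB5 by 3.20 ± 0.59 (6.90e-04), and CDC28, the Cdk itself, by 2.38 ± 0.53 (0.00328). CLB5 read 262, 309, 170.4 and 204 at 0 h and 1029, 1551, 3026 and 4560.5 at 4 h, with rad50delta and spo11Y135F highest at 4 h. CLB6, the partner cyclin, rose by 2.07 ± 0.65 (0.0341) but read 8.4, 18.3, 18.9 and 8.2 at 0 h and 16.6, 17.6, 172 and 446 at 4 h, so that the rise lay in rad50delta and spo11Y135F. Its call was lost in 9 alternatives, with adjusted p up to 0.254 without spo11Y135F.

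Among 6 G1/S transcription factors, WHI5, a repressor of the mitotic G1/S program, rose by 2.68 ± 0.52 (adjusted p = 0.00106). Among 12 genes of nucleotide supply, DIF1, which brings ribonucleotide reductase subunits into the nucleus, rose by 2.51 ± 0.54 (0.00284). At 0 h 3 of the 12 nucleotide genes were higher and 3 lower on the RNeasy arrays, against 15.7% and 18.0% of all tested genes. DUT1, the dUTPase, read 1682, 1658, 348 and 177 at 0 h and differed by -2.71 ± 0.37 (adjusted p = 2.43e-04). RNR1, the large subunit of ribonucleotide reductase, differed by -2.23 ± 0.34 (4.45e-04), and CDC21, the thymidylate synthase, by -1.72 ± 0.31 (0.00137). RNR3, the damage-inducible large subunit, was higher by 1.51 ± 0.31 (0.00318), a call lost without the array labelled mre11delta (0.0757). RNH201, a subunit of RNase H2, was the 1 further replication factor called at 0 h, with -1.78 ± 0.33 (0.00157).

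All 10 early meiotic markers rose, and their summed signal ran from 124 to 486 at 0 h and from 6193 to 13566 at 4 h, lowest in spo11Y135F. REC8, the meiotic cohesin subunit, rose by 6.26 ± 0.57 (adjusted p = 1.90e-07). At 0 h DMC1, the meiotic recombinase, was higher on the RNeasy arrays by 2.04 ± 0.39 (0.00193), a call lost without the array labelled mre11delta (0.0503). REC8 was higher there by 1.52 ± 0.37 (0.00803), with 0 h readings of 6.1, 7.5, 39.0 and 27.1. RED1, a protein of the meiotic chromosome axis, differed by -1.40 ± 0.42 (0.0226), with 35.6, 18.4, 8.6 and 2.9. The RED1 call was lost without wild type, without spo11Y135F and with median centring (0.0527). Several of these readings lay under 21, and both genes passed the filter through their 4 h signals, so these 2 differences are uncertain. Of the S phase kinase list, IME2 was also higher on the RNeasy arrays at 0 h, by 1.84 ± 0.34 (0.00158). So was SIC1, the Cdk inhibitor, by 1.03 ± 0.34 (0.0359), a call lost without wild type and without the array labelled mre11delta. Of 10 tested mitotic G2/M markers 1 fell, CHS2, the septum chitin synthase, with a change of -2.16 ± 0.57 (0.012), a call lost without wild type (0.116) and with the RNeasy pairs alone (0.0855). Of 14 tested haploid and mating-type markers 3 rose, MFA1, STE3 and STE18. STE18 read 17.6, 12.7, 19.3 and 4.6 at 0 h and 35.3, 15.5, 368 and 1357 at 4 h. Its rise thus lay mostly in rad50delta and spo11Y135F. The STE18 call was lost in 6 alternatives, among them median centring (0.163), without spo11Y135F (0.0685) and without wild type (0.104). The list sum ran from 916 to 1762 at 0 h and from 1773 to 7078 at 4 h, and in wild type it went from 1397 to 1773. Much of the 4 h sums came from STE4, which did not pass (0.0951) and read 495, 1113, 2458 and 3891. No marker on any of these lists was at 0 on an array, but some readings lay far under 21, such as 1.0 for REC114 in wild type at 0 h. The absence of a 0 therefore does not show that a marker was detected. The part of cell mixture or stage in the changes of the replication genes was not tested.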

How the data were processed

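The authors deposited linear signal intensities that they computed with MAS5, per the submitters' processing notes. The sources used here name neither the MAS5 version nor the scaling between arrays. Per the labels' protocols, polyadenylated RNA was labelled with biotin and hybridised to YG-S98 arrays. Of 9335 probe sets, 6504 name 1 gene in the platform annotation, 328 name several and 2503 are unnamed here. Each gene was read from 1 probe set, chosen by gene-specific type and then by highest mean.

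Values were used as deposited, as log2(signal + 7), so changes of dim genes are understated. The test took genes whose mean signal reached 21. The change over time was tested in R 4.3.3 with limma 3.58.1 (eBayes with trend, strain as block, 3 residual degrees of freedom, two-sided), and the 0 h comparison with 2 against 2 arrays (2 residual degrees of freedom). P-values were Benjamini-Hochberg adjusted over 5475 genes, at a threshold of 0.05. SE is limma's moderated standard error. A gene stood apart in a strain where it lay at least 2-fold beyond the other 3 strains at that time. The labels name strains and no separate cultures, so p-values measure the spread between strains, and precision is limited by how many arrays there are.

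The members and the lists were chosen with earlier results of these data known. Readings on every array are given for members past the test over time, members standing apart and the member with the largest change of each role, and for up to 4 genes per further list past the test the changes are given. CDC5, CDC20, CLB1, STE4 and the array readings of CLB5, CLB6, REC8, RED1 and STE18 were added after their values were seen. Alternatives were median centring, quantile normalization, other pseudocounts, floors and probe set choices, extraction as a covariate, RNeasy pairs alone, no strain block, no trend and each strain left out. The fit was tested on simulated data with the same spread for every gene and no strain or brightness effects. That test therefore cannot show how the fit behaves on arrays that differ as these do.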

Additional observations from a re-analysis of the deposited data

Results flagged for a closer look

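The change of SLD3 from 0 h to 4 h was -2.61 in wild type, far from the -0.54 to -0.23 of the other 3 strains on the log2(signal + 7) scale. The gap took up 0.868 of the range of the 4 strains, above Dixon's 95% critical value. The wild-type 4 h signal behind it was 7.7, close to the pseudocount, on the array with the lowest median signal of the 8. Of the 47 genes looked at, 1 was marked in this way, where chance marks about 1 in 20 groups.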

How the results depend on the processing

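The number of replication genes higher at 4 h was 9 as reported, 5 with extraction as a covariate (ORC1, ORC3, MCM5, DBF4 and POL12), and from 4 to 10 with each strain left out. With extraction as a covariate the wild-type pair adds nothing to the estimate. The number lower was 0 as reported, 2 with the RNeasy pairs alone (CDC9 and CTF4), 4 with median centring and 2 with quantile normalization. Over all genes, 582 rose and 220 fell as reported, 328 and 36 without wild type, and 409 and 559 with median centring, which moved the median change of all genes from 0.19 to -0.21. At 0 h the number higher on RNeasy arrays was 0 to 1 and the number lower 1 to 13 with each strain left out. The number of genes standing apart was 18 as reported, 11 with median centring and 1 with a 4-fold threshold. The 11 include ORC1 and RFC5, which are not among the 18. The labels give no replicate numbers, and strain pairs the arrays as the block, without which 12 genes rose. Each lone array left by leaving out a strain at 0 h is assumed to vary like the others.

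Directions turned for genes that did not pass the test. With the RNeasy pairs alone MCM2, MCM7 and MRC1 had changes of -0.15, -0.048 and -0.32. With median centring MCM2, MCM7, RFC1, RFC3, RFC5, TOF1 and MRC1 had -0.37, -0.019, -0.33, -0.33, -0.16, -0.12 and -0.17, and with quantile normalization MCM2, RFC1, RFC3, RFC5, TOF1 and MRC1 had -0.36, -0.28, -0.27, -0.032, -0.036 and -0.075. With each strain left out in turn, values ran from -0.28 to 1.05 for CDC6, from -0.22 to 0.34 for MCM2, from -0.14 to 0.82 for MCM7, from -0.50 to 0.072 for CDC45, from -0.81 to 0.047 for POL31, from -0.36 to 0.033 for POL30, from -0.30 to 0.30 for RFC1, from -0.15 to 0.40 for RFC3, from -0.044 to 0.65 for TOF1 and from -0.054 to 1.14 for STB1 at 0 h (RNeasy minus Trizol). Causes were not tested.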

Other observations

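Pairs of replication genes lie side by side in the reference gene order (R64). On chromosome XIV POL2 and ORC5 are neighbours on the same strand, and their changes from 0 h to 4 h were 1.99 and -0.43 on the log2(signal + 7) scale. On chromosome II RFC5 and POL30, on opposite strands, had changes of 0.24 and -0.19.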
